A study of Mus musculus with 6 samples.

Results

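This account follows the transcripts of the replication stress response and DNA repair in mouse mammary tumor cells. The set was defined by gene symbol as 38 genes of the ATR and ATM checkpoints and of the main repair pathways, with Mre11 read from the row Mre11a and H2ax from the row H2afx. Of these, 33 stood among the 10995 rows of the count table, and Chek1, Palb2, Fancd2, Fanci and Exo1 were not analysed here. All libraries came from PyVT mice of strain FVB/NJ, in which the MMTV promoter drives the polyoma middle T oncogene in the mammary epithelium and gives mammary tumors. One group was labelled wild type (WT) for the orphan nuclear receptor gene Nr4a1 and the other Nr4a1-/- (knockout, KO), with 3 libraries each. The mice are described as matched in age, and neither that age nor how the Nr4a1 allele was disrupted is given in the sources used here. Both groups carry the oncogene, so no normal tissue was compared. Nothing in the labels ties a library to its own mouse or tumor, and a p-value therefore reflects variation among 6 libraries that may be technical.

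When a replication fork stalls, single-stranded DNA coated by RPA recruits the kinase ATR with its partner ATRIP, and ATR signals through claspin to the checkpoint kinase CHK1, which holds back mitosis until replication is complete. Broken ends are instead read by the MRE11-RAD50-NBN complex, which activates ATM and its target CHK2, and they are then rejoined directly by KU70, KU80 and DNA-PKcs or copied from the sister chromatid with the help of BRCA1 and BRCA2. Many of these genes are transcribed mostly in S phase, and polyoma middle T tumors proliferate actively. Their transcript levels can therefore depend on the dividing share of the cells as well as on any response to damage. Neither was tested here.

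Total counts per library ranged from 19569173 to 24188875, and a level is given as CPM, a count scaled to a common library size after adjustment by the trimmed mean of M values (TMM). WT replicate 1 stood apart from the other libraries, at -51.3 on a first principal component that carried 60.1% of the variance, against -2.22 to 28.8 for the others. Nr4a1 itself was not lower with the knockout label, at 34.5, 18.6 and 16.8 CPM in WT replicates 1, 2 and 3 and 25.1, 35.5 and 37.6 CPM in KO replicates 1, 2 and 3. The fitted log2 fold change, KO over WT, was 0.49 (edgeR adjusted p = 0.59), and with 1 library left out it ran from 0.31 without WT replicate 3 to 0.88 without WT replicate 1. A two-sided exact permutation over libraries returned p = 0.2, and 3 libraries against 3 cannot go below 0.1. Where in the gene these reads lie cannot be read from a total per gene, so every direction below is between libraries as labelled. Epithelial markers had summed levels of 7726 to 8092 CPM with the WT label and 4579 to 5811 CPM with the KO label, with all 14 of the 15 listed markers that could be read below 0 in log2 fold change. Fibroblast markers summed to 2256 to 5476 CPM and 4852 to 8879 CPM, macrophage markers to 823 to 965 CPM and 1172 to 1337 CPM, and pericyte and smooth muscle markers to 250 to 1047 CPM and 850 to 1964 CPM. All 7 fibroblast and all 7 pericyte and smooth muscle markers in the table lay above 0, as did 10 of 11 macrophage markers. The groups did not overlap for 5 of the pericyte and smooth muscle markers, 0 of the fibroblast and 1 of the macrophage markers. Nor did they for 6 of the 14 epithelial markers, against 17.4% of all genes in either direction, 8.39% higher and 9.05% lower. DESeq2 called 2 pericyte and smooth muscle markers and 1 epithelial marker, against 0.938% of all genes. Of the endothelial, adipocyte and lymphocyte markers only Esam, Fabp4 and Ptprc stood in the table. These were higher in every KO library and called by DESeq2 but not by edgeR, with Esam at 2.28 to 4.59 CPM and 10.7 to 17.8 CPM, Fabp4 at 2.45 to 4.27 CPM and 26.6 to 78.1 CPM, and Ptprc at 4.94 to 7.48 CPM and 10.3 to 11.3 CPM. The part of cell composition in the results below was not tested, and in bulk RNA fewer cells of a type and less RNA per cell cannot be told apart.

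The promoters of 4 genes on which the results turn are shown first: the gene with the largest fold change above 0, Chek2, the next in that order, Clspn, and Brca1 and Brca2, which lay at opposite extremes in WT replicate 1. Each line gives the 250 bases before the RefSeq start on GRCm38.p6, 5′ to 3′ on the gene's own strand, with E2F and CCAAT letters on either strand in capitals. They were chosen after the values were seen.
Chek2: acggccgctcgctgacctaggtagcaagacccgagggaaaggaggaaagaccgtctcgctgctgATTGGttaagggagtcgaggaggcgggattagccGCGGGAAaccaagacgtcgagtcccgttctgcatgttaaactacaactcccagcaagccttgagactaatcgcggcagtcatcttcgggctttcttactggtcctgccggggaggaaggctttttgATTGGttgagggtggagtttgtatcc
Clspn: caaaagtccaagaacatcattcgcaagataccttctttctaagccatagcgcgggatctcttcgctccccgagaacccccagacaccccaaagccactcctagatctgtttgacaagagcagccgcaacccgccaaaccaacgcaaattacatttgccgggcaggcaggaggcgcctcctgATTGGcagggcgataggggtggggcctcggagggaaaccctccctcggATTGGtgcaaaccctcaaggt
Brca1: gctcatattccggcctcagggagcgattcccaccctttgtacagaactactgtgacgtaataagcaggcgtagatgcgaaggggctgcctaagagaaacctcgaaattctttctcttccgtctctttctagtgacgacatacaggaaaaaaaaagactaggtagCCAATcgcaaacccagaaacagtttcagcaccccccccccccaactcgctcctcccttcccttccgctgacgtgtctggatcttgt
Brca2: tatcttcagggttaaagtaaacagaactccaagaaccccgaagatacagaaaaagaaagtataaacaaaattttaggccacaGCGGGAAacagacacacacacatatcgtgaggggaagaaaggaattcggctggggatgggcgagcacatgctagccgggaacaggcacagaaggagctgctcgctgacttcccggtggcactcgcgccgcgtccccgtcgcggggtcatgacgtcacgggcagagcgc
The windows lie at chr5:110839733-110839982 (plus strand), chr4:126556730-126556979 (plus strand), chr11:101551956-101552205 (minus strand) and chr5:150522371-150522620 (plus strand). For E2F, the factor family that switches on S phase genes, the search took TTGGCGC and the close variants TTCGCGC as well as TTCCCGC and also TTGCCGC. The box of NF-Y was searched as CCAAT, and the cell cycle homology region, through which repressor complexes act on G2 and M phase genes, as TTTGAA, all on both strands. None of these motifs contains another. Chek2 held 1 E2F match 152 bases before the start and CCAAT matches at 186 and 26 bases. Clspn held CCAAT matches at 69 and 21 bases, Brca1 1 CCAAT match at 86 bases, and Brca2 1 E2F match at 168 bases. RefSeq promoters were found for 28 of the 38 genes in 29 windows, and E2F letters stood in 7 of these (24.1%), against 7.89% of 32851 promoters of the same length. CCAAT stood in 13 windows (44.8%, against 33.8%), and the cell cycle letters in 1, that of Hus1 (3.45%, against 16%). Rad18 has overlapping windows among the 29, and the promoters compared were not matched for base composition or expression. A match is a description of letters, not of a bound site.

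None of the 33 replication stress and repair transcripts that could be read differed between the labels by a passing test, and most fitted differences were small. The median log2 fold change, KO over WT, was 0.048 over the 33 genes, with 22 above 0 and 11 below, and -0.0024 over all genes tested, of which 50.6% lay below 0. Fold changes ran from -0.64 for Brca2 to 0.58 for Chek2, and 29 of the 33 were smaller than 0.25 in size. In 28 genes the 95% interval of the single fold change lay within 2-fold in either direction, and in 23 genes within 1.5-fold. The edgeR quasi-likelihood test called 0 of the 33 at an adjusted p under 0.05, as it called 0% of all genes. It gave 0 of the 33 an unadjusted p under 0.05, where 7.88% of all genes had one (3.70% higher and 4.17% lower). DESeq2 also called 0 of the 33, against 0.938% of all genes. The smallest edgeR adjusted p in the set was 0.574. A p that misses the threshold does not show that levels were equal, and the intervals give the sizes that these libraries leave possible.

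**Figure D1:**
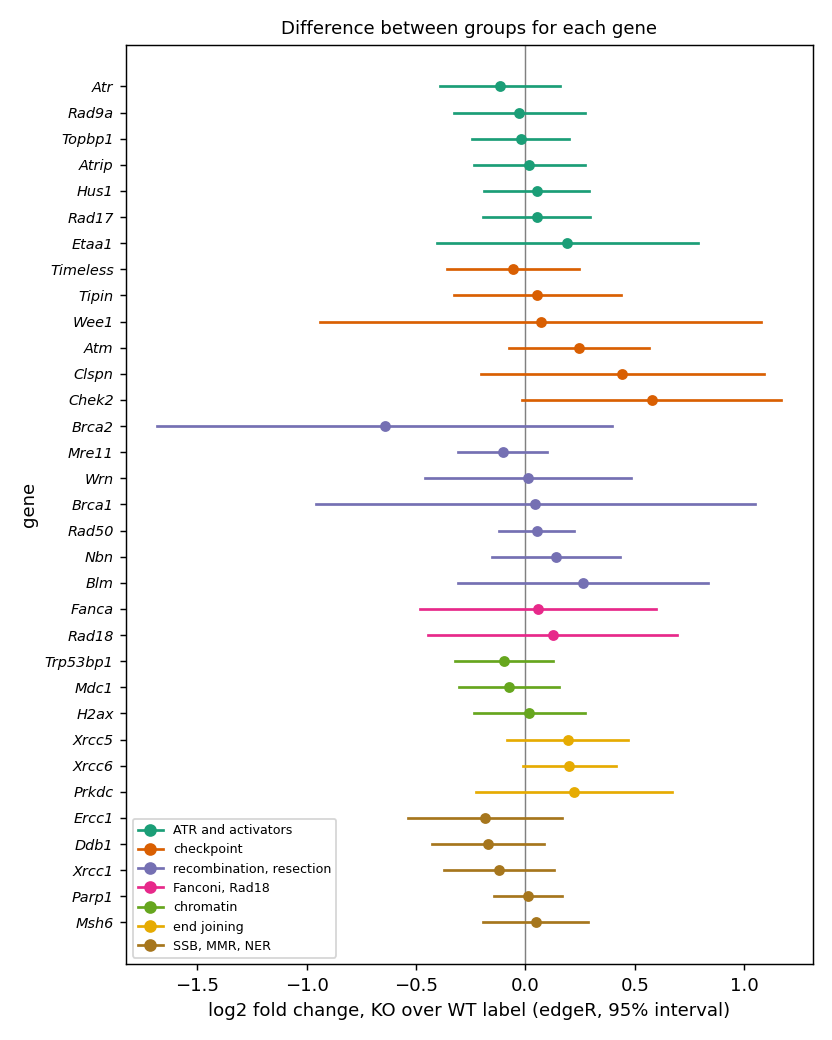
Log2 fold change, KO over WT label, of each of the 33 genes (point) with the 95% interval of the edgeR fit (line), coloured by role. All intervals include 0, and those of Brca2, Brca1 and Wee1 are the widest.

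The groups did not overlap for 5 genes, 4 higher and 1 lower with the knockout label. That is 15.2% of the 33, against 17.4% of all genes in either direction (8.39% higher and 9.05% lower), so the share is near the background and is not a result about these genes. Without WT replicate 1 the count was 6, 4 higher and 2 lower, with 24.3% of all genes not overlapping, and the median log2 fold change of the 33 was -0.014. Without WT replicate 2 the count was 12, 6 in each direction, and without WT replicate 3 it was also 12, 11 higher and 1 lower, while 33.1% and 27.9% of all genes did not overlap.

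**Figure D2:**
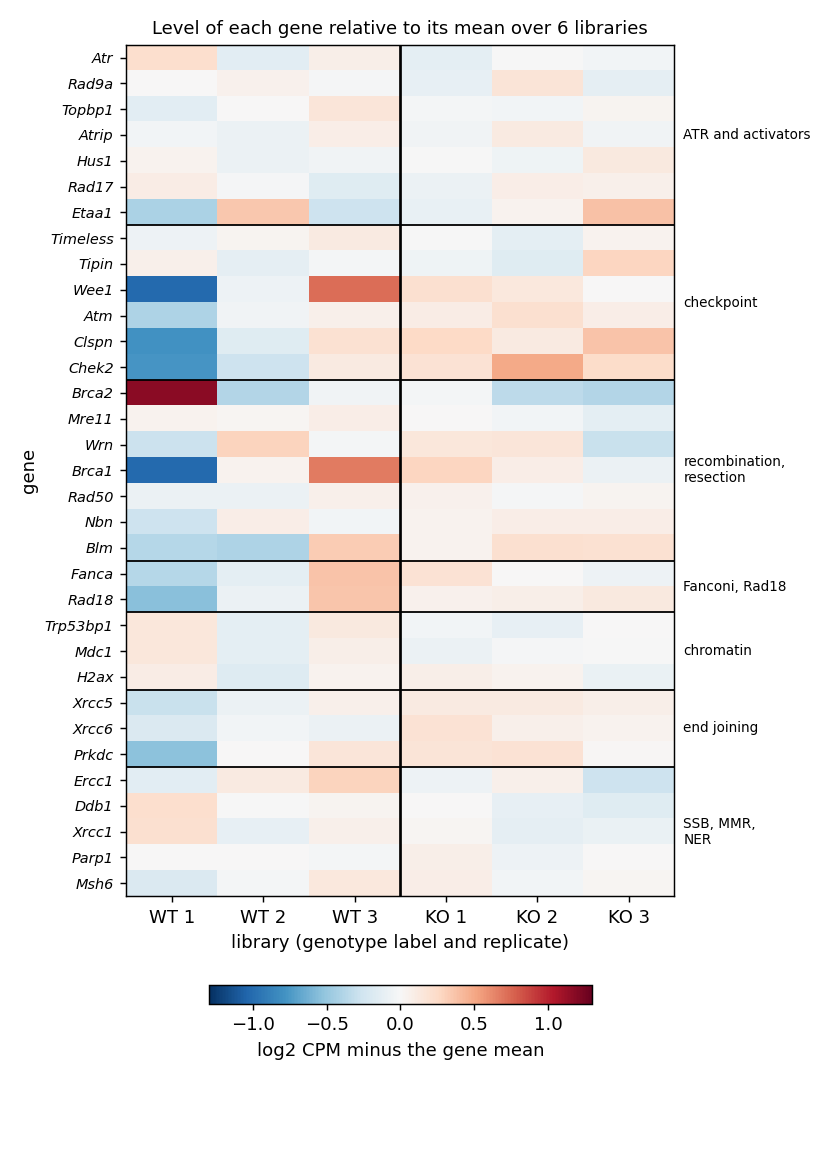
Log2 CPM of each gene (rows, grouped by role) minus its mean over the 6 libraries (columns), from below the mean in blue to above it in red. WT replicate 1 holds the deepest blue cells, in Brca1, Wee1, Clspn and Chek2, and the deepest red one, in Brca2, whereas Parp1, Rad50 and Atrip are pale throughout.

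The ATR kinase and its activators differed little between the labels. ATR phosphorylates checkpoint targets at stalled forks, and Atr stood at 36.6, 28.5 and 33.2 CPM in the WT libraries and 28.8, 31.4 and 30.6 CPM in the KO libraries. The KO libraries lay inside the WT range, and the log2 fold change was -0.12 (SE 0.11, 95% interval of the fold 0.764 to 1.12). Atrip, which brings ATR to RPA-coated DNA, ranged from 15.4 to 17.6 CPM over all 6 libraries, although 25.2% of the 31-base words of its longest transcript also occur in other genes, chiefly Trex1. The clamp loader Rad17 and the clamp subunits Rad9a and Hus1, which mark the junction beside the stalled fork, had log2 fold changes of 0.052, -0.028 and 0.051. Topbp1 and Etaa1, the direct activators of ATR, had -0.022 and 0.19, the latter 0.46 without WT replicate 2 and 0.047 without KO replicate 3. Etaa1 was the most variable of the 7, from 8.77 CPM in WT replicate 1 to 15.1 CPM in KO replicate 3, with WT replicate 2 at 14.9 CPM. Of its own words, 12% recur elsewhere, chiefly in the gene model Gm11284. The median of the group was 0.018, and 0 of 7 were without overlap.

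Among checkpoint mediators and effector kinases, 5 of the 6 that could be read lay above 0, with a median of 0.16, which was 0.11 without WT replicate 1 and 0.47 without WT replicate 3. Chek2 encodes the kinase CHK2, which ATM activates at broken DNA. It stood at 5.33, 7.57 and 9.84 CPM in WT replicates 1, 2 and 3 and at 10.3, 12.8 and 10.7 CPM in KO replicates 1, 2 and 3. All KO libraries were above all WT libraries, but WT replicate 3 and KO replicate 1 were close together. The means were 7.58 CPM ± 2.25 (SD, n = 3) and 11.3 CPM ± 1.33 (SD, n = 3), a log2 fold change of 0.58 (SE 0.24, edgeR adjusted p = 0.57, DESeq2 adjusted p = 0.44). The interval of the fold ran from 0.989 to 2.25, and the log2 fold change was 0.38 without WT replicate 1 and 0.81 without WT replicate 3. Chek2 (ENSMUSG00000029521.7) lies on chromosome 5 from 110839979 to 110874145, plus strand, GRCm38.

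ATM is the kinase that broken ends activate, and its transcript stood at 30.97, 39.6 and 42.7 CPM in the WT libraries and at 43.8, 47.1 and 43.3 CPM in the KO libraries. The groups did not overlap, yet the gap between WT replicate 3 and KO replicate 3 was small beside the range of the WT libraries. The log2 fold change of Atm was 0.24 (SE 0.13, edgeR adjusted p = 0.57), with 0.12 without WT replicate 1 and 0.35 without WT replicate 3. The ratio of Chek2 to Atm counts was 0.172, 0.191 and 0.230 in the WT libraries and 0.236, 0.272 and 0.248 in the KO libraries. Claspin hands the signal from ATR to CHK1, and Clspn stood at 3.93, 6.10 and 7.81 CPM and at 8.13, 7.34 and 8.78 CPM. WT replicate 3 lay above KO replicate 2, so the groups overlapped, and the log2 fold change of 0.44 (SE 0.27, edgeR adjusted p = 0.58) was 0.22 without WT replicate 1 and 0.69 without WT replicate 3. Clspn counts were low, from 81 to 198 per library. Timeless and Tipin, the fork protection pair, had log2 fold changes of -0.056 and 0.054 and levels between 8.80 and 12.2 CPM.

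Wee1, the kinase that keeps CDK1 inactive before mitosis, varied more among the WT libraries (SD 11.9 CPM) than among the KO libraries (SD 1.57 CPM). It stood at 10.1, 19.4 and 33.8 CPM in the WT libraries and at 23.6, 22.4 and 20.5 CPM in the KO libraries. All KO libraries lay within the WT range, and the highest library was 3.34 times the lowest, a spread that 93.6% of all genes do not reach. Its log2 fold change was 0.069, -0.26 without WT replicate 1 and 0.59 without WT replicate 3.

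**Figure D3:**
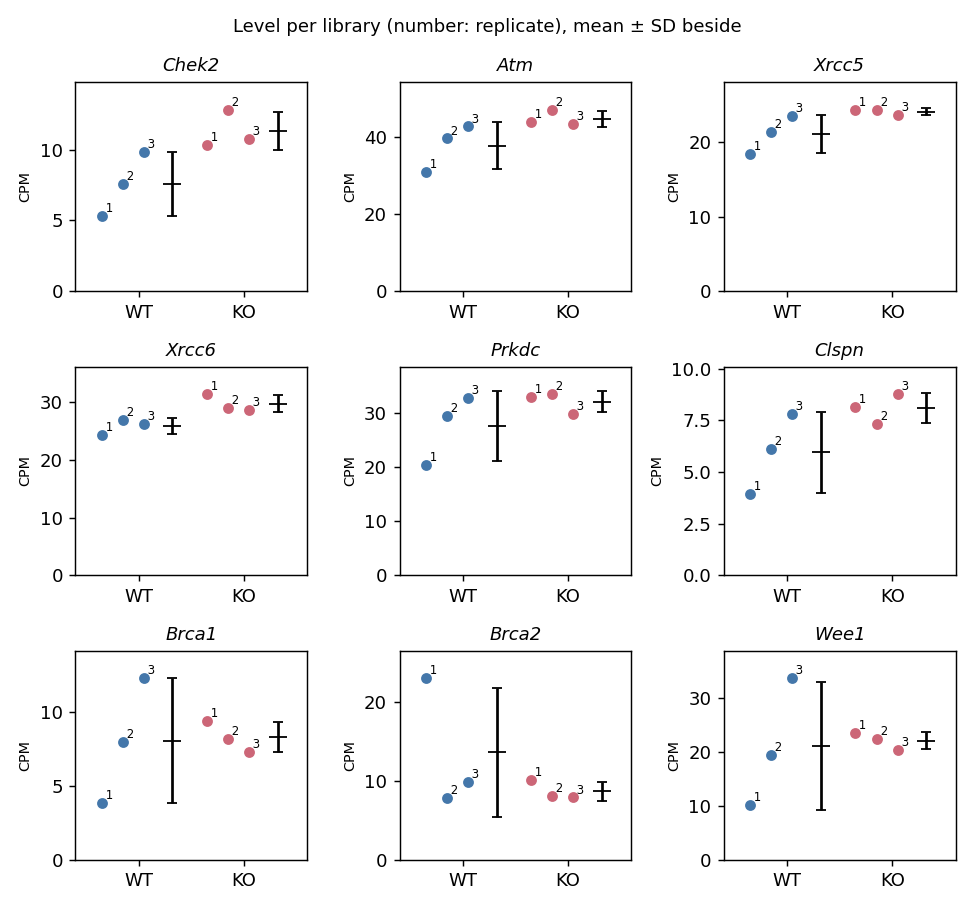
CPM of 9 genes in each library (points, numbered by replicate) with the mean and SD of the 3 libraries beside them (bar), each panel starting at 0. Chek2, Atm, Xrcc5 and Xrcc6 do not overlap between labels, whereas the KO libraries of Brca1 and Wee1 lie inside the WT range.

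Brca1 and Brca2, which act in homologous recombination, differed most in WT replicate 1 and in opposite directions. Brca1 stood at 3.83, 7.98 and 12.3 CPM in the WT libraries and at 9.36, 8.18 and 7.32 CPM in the KO libraries. Brca2 stood at 23.0, 7.84 and 9.88 CPM and at 10.1, 8.09 and 7.87 CPM. WT replicate 1 was the lowest library for Brca1 and the highest for Brca2. The ratio of Brca1 to Brca2 counts, which no scaling can change, was 0.167 in WT replicate 1, from 79 and 474 counts, and 0.929 to 1.24 in the other libraries. The log2 fold change was 0.045 (SE 0.41) for Brca1 and -0.64 (SE 0.42, edgeR adjusted p = 0.60) for Brca2. Without WT replicate 1 these were -0.29 and -0.030, and without WT replicate 3 they were 0.49 and -0.82. The Brca2 value thus rests on WT replicate 1. Brca1 (ENSMUSG00000017146.12) lies on chromosome 11 from 101488764 to 101551955, minus strand, and Brca2 (ENSMUSG00000041147.10) on chromosome 5 from 150522630 to 150570329, plus strand.

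The nuclease and end sensor complex was steady. Mre11 stood at 24.6, 24.2 and 25.3 CPM with the WT label and 23.9, 23.1 and 21.8 CPM with the KO label. It was the gene whose KO libraries all lay below the WT libraries, but KO replicate 1 and WT replicate 2 were nearly equal, at -0.10 in log2 fold change (SE 0.084, edgeR adjusted p = 0.64). With library size alone as the scaling, this separation was lost. Rad50, the tethering ATPase of the complex, ranged from 62.7 to 69.4 CPM, and Nbn, its link to ATM, from 14.5 to 18.6 CPM. Their log2 fold changes were 0.051 and 0.14. The ratio of Mre11 to Rad50 counts was 0.364 to 0.390 in the WT libraries and 0.320 to 0.354 in the KO libraries. For Nbn to Rad50 the ratio was 0.230 to 0.295 and 0.262 to 0.285, which overlap. Ratios of Atr to Atrip and of Timeless to Tipin counts overlapped between the labels too. Of the RecQ helicases, which unwind recombination intermediates, Blm stood at 5.77, 5.64 and 9.37 CPM and at 7.72, 8.64 and 8.58 CPM. WT replicate 3 was its highest library, and its log2 fold change was 0.26 (SE 0.23), or 0.55 without WT replicate 3 and 0.13 without WT replicate 2. Wrn had 0.0099 and ranged from 16.0 to 23.8 CPM.

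Of the genes of crosslink and replication-coupled repair, Fanca, of the Fanconi core complex, and Rad18, the ubiquitin ligase of PCNA, could be read. Fanca ranged from 6.06 to 10.1 CPM and Rad18 from 6.45 to 12.001 CPM, and for both WT replicate 1 was the lowest library and WT replicate 3 the highest. Their log2 fold changes were 0.056 and 0.12. An exon of Zfp276 on the opposite strand overlaps 10.5% of the exon bases of Fanca.

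Mediators that gather at damaged chromatin differed little. H2ax, the histone variant that is phosphorylated beside breaks, stood at 30.4, 25.4 and 29.5 CPM and at 30.0, 29.5 and 26.8 CPM, with the KO libraries inside the WT range. Its log2 fold change was 0.018 (SE 0.10, 95% interval of the fold 0.850 to 1.21). Its phosphorylation, the usual sign of damage, is not seen in RNA. Mdc1, which binds phosphorylated H2AX, and Trp53bp1, which steers repair towards end joining, had log2 fold changes of -0.074 and -0.098. For these 3 genes WT replicate 1 was the highest library and WT replicate 2 the lowest. Tubgcp4 on the opposite strand overlaps 15% of the exon bases of Trp53bp1, and 11.2% of the words of H2ax occur in other genes, chiefly clustered histone genes.

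The 3 genes of non-homologous end joining all lay above 0 and close to each other. Xrcc6, which encodes KU70, stood at 24.3, 26.9 and 26.2 CPM in the WT libraries and 31.4, 29.0 and 28.6 CPM in the KO libraries. Its groups did not overlap, and the log2 fold change was 0.20 (SE 0.087, 95% interval of the fold 0.993 to 1.33, edgeR adjusted p = 0.57). Xrcc5, which encodes its partner KU80, stood at 18.4, 21.4 and 23.5 CPM and at 24.3, 24.4 and 23.7 CPM. WT replicate 3 almost reached KO replicate 3, and the log2 fold change of Xrcc5 was 0.19 (SE 0.11, edgeR adjusted p = 0.58). Prkdc, which encodes DNA-PKcs, stood at 20.3, 29.4 and 32.8 CPM and at 32.9, 33.5 and 29.8 CPM. Here WT replicate 1 was low and the other libraries overlapped, and the log2 fold change of 0.22 (SE 0.18) was 0.043 without WT replicate 1 and 0.37 without WT replicate 3. Xrcc5 had 0.10 and 0.28 in these fits, and Xrcc6 had 0.16 without WT replicate 1. The ratio of Xrcc5 to Xrcc6 counts was 0.758 to 0.898 with the WT label and 0.776 to 0.842 with the KO label. Desi1 on the opposite strand overlaps 7.69% of the exon bases of Xrcc6.

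Genes of single-strand break, mismatch and excision repair had a median log2 fold change of -0.12, which ran from -0.18 without WT replicate 2 to -0.042 without WT replicate 1. Parp1, which detects nicks and is the target of PARP inhibitors, stood at 85.2, 84.8 and 83.0 CPM and at 89.2, 80.7 and 85.2 CPM. It was the steadiest of the 33 genes, with a highest level 1.10 times the lowest, and its log2 fold change was 0.012 (SE 0.064, 95% interval of the fold 0.905 to 1.12). The scaffold Xrcc1 had -0.12, the mismatch sensor Msh6 0.048 and Ercc1, of the nuclease that cuts 5′ of bulky lesions, -0.18. Ddb1, a subunit of the ultraviolet damage sensor and the adaptor of CUL4 ubiquitin ligases, stood at 1078, 928 and 953 CPM and at 932, 861 and 834 CPM. KO replicate 1 lay just above WT replicate 2, and the log2 fold change of Ddb1 was -0.17 (SE 0.11, edgeR adjusted p = 0.59).

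Levels between genes were compared as CPM per kilobase of annotated exon, averaged over the 6 libraries. Ddb1 was highest at 145, followed by H2ax at 20.7, Parp1 at 16.0, Msh6 at 12.4 and Rad50 at 12.3. The lowest were Brca2 at 0.815, Blm at 0.868, Fanca at 0.907, Brca1 at 0.956 and Clspn at 0.976. Exon length here counts all annotated isoforms, and Atr, with 23.6 kilobases, stood at 1.33. Of the 5 lowest genes, Brca1, Brca2 and Clspn were also among the 5 whose highest library was more than 2 times the lowest, the others being Wee1 and Chek2.

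**Figure D4:**
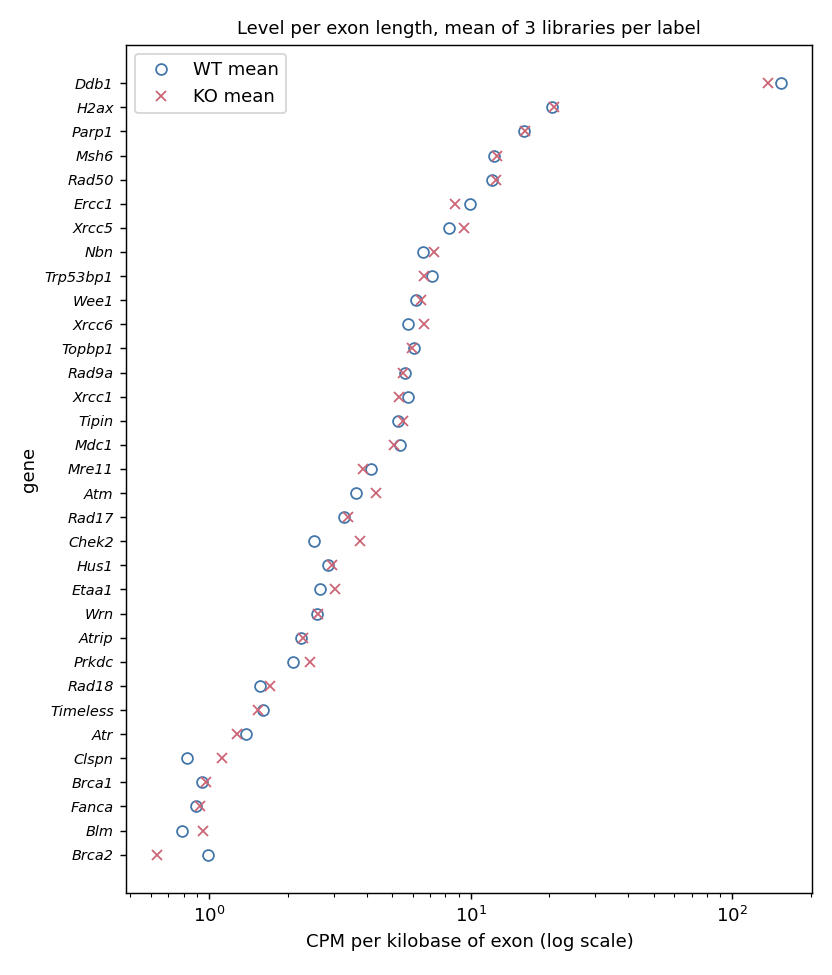
CPM per kilobase of exon (log axis) of each of the 33 genes, ordered by the mean of all libraries, with the mean of the 3 WT libraries (circles) and of the 3 KO libraries (crosses). The 2 marks of a gene lie furthest apart, as a ratio, for Chek2, Brca2 and Clspn.

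The WT libraries were the more spread group for most of these genes. The SD of the WT libraries exceeded that of the KO libraries in 26 of the 33 genes (78.8%), against 61.7% of all genes. WT replicate 1 was the lowest library for 14 of the 33 and the highest for 8, and WT replicate 3 was the highest for 11 and the lowest for 1. Over all genes, WT replicate 1 was the lowest for 31.6% and the highest for 32.2%, against 42.4% and 24.2% of the 33. WT replicate 3 was the highest for 14.2% and the lowest for 12.8% of all genes, against 33.3% and 3.03% of the 33. The median ratio of the highest to the lowest library was 1.29 over the 33 genes and 1.35 over all genes. It was 1.88 in the checkpoint group and 1.22 in the ATR group.

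Of the 14 genes whose expression is known to peak in S phase, 10 could be read, Chek1, Exo1, Fancd2 and Fanci being absent. The median log2 fold change of these 10 was 0.046 (7 above 0, 3 below), while that of the other 23 was 0.051. The first median was -0.029 without WT replicate 1 and 0.099 without WT replicate 3. Their median deviation from the gene mean was -0.16, -0.12 and 0.15 in the WT libraries and 0.059, -0.012 and 0.030 in the KO libraries. Listed S phase genes such as the MCM helicase subunits had -0.17, -0.090 and 0.13 and then 0.070, 0.019 and 0.071. Listed G2 and M phase genes had -0.71, -0.10 and 0.27 and then 0.33, -0.0032 and 0.16. WT replicate 1 was the lowest library for 21 of the 22 G2 and M phase genes and 13 of the 24 S phase genes. The checkpoint group, with a median deviation of -0.58 in that library, was low there beside a low level of proliferation genes, whose part in the result was not tested. KO over WT, the median log2 fold change was 0.13 for the S phase list (18 above 0, 6 below) and 0.34 for the G2 and M phase list (21 above 0, 1 below), with 0 genes of either called by edgeR or DESeq2. At an unadjusted p under 0.05 edgeR gave 1 S phase gene and 0 of the other list. The S phase genes without overlap were Prim1, Tyms, Slbp and Orc6, all higher with the KO label, at 0.29, 0.28, 0.23 and 0.16. They made up 16.7% of the list, against 8.39% of all genes higher without overlap and 17.4% in either direction. Without WT replicate 1 these medians were 0.081 and 0.12, and without WT replicate 3 they were 0.19 and 0.60.

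**Figure D5:**
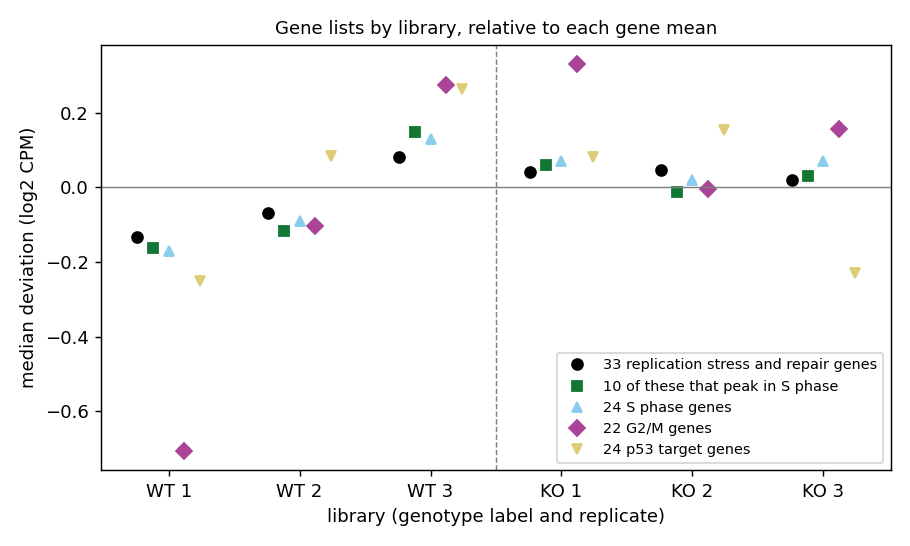
Median over each gene list of log2 CPM minus the gene's mean over the 6 libraries, by library. All lists are lowest in WT replicate 1, where the G2 and M phase list stands at -0.71 and the 33 repair genes at -0.13, and all are above 0 in WT replicate 3.

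Other genes of the same pathways, listed by their known roles, are given in groups, and edgeR and DESeq2 called 0 of the genes in any of these 5 lists. Of 32 other genes of homologous recombination, 18 could be read, 12 of them above 0, and their median was 0.035 on the log2 scale. At an unadjusted p under 0.05 edgeR gave 1, Recql5, a RecQ helicase, where 7.88% of all genes had such a p. Recql5 stood at 83.3, 42.2 and 42.1 CPM with the WT label and 33.1, 33.7 and 32.3 CPM with the KO label, with all KO libraries lower and WT replicate 1 far above the rest. For Recql5 the log2 difference came to -0.76 (SE 0.29, edgeR adjusted p = 0.57), and Recql, which also did not overlap, had 0.20. Of 26 other genes of the Fanconi pathway and translesion synthesis, 22 could be read, with 14 above 0 and a median of 0.099. Faap20, of the Fanconi core complex, lay lower in all KO libraries (-0.29, SE 0.12) and Ube2b, the partner of RAD18, higher (0.12, SE 0.070). Genes without overlap made up 11.1% of the recombination list and 9.09% of the Fanconi list. Both shares are below the 17.4% of all genes and are not a result about these lists.

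Of 19 other genes of the ATR branch and of fork protection, 16 could be read, 8 above 0 and 8 below, with a median of -0.0025. Rpa1, the large subunit of the protein that coats single-stranded DNA, stood at 39.4, 51.2 and 51.6 CPM with the WT label and 64.7, 56.9 and 56.2 CPM with the KO label. It was the gene of that list without overlap and with an unadjusted edgeR p under 0.05, at a log2 fold change of 0.32 (SE 0.13, edgeR adjusted p = 0.57). Of 26 other genes of end joining and damaged chromatin, 21 could be read, 9 above 0, with a median of -0.0068 and values from -0.18 to 0.11. Aptx, which cleans blocked 5′ ends, had the lowest value and did not overlap. Of 46 other genes of base, mismatch and nucleotide excision repair, 40 could be read, 21 above 0, with a median of 0.0012. Msh3, a mismatch sensor (0.24, SE 0.14), and Ercc4, the nuclease partner of ERCC1 (0.18, SE 0.089), were higher in all KO libraries. Genes without overlap made up 6.25% of the ATR and fork list, 4.76% of the end joining list and 5% of the excision repair list. These shares too are below the 17.4% of all genes and are not a result about these lists.

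Downstream of ATM and CHK2, p53 switches on cell cycle inhibitors and death genes. All 24 listed p53 targets could be read, 12 above 0 and 12 below, with a median log2 fold change of 0.0047 (-0.18 without WT replicate 1 and 0.13 without KO replicate 3), and edgeR and DESeq2 called 0 of them. At an unadjusted p under 0.05 edgeR gave 1 of these, Bax. Cdkn1a, which encodes the inhibitor p21, stood at 206, 376 and 433 CPM in the WT libraries and 392, 429 and 224 CPM in the KO libraries, with 1 low library in each group. Bax and Bbc3, which promote cell death, were the 2 targets without overlap, both lower with the KO label. They made up 8.33% of the list, against 9.05% of all genes lower without overlap and 17.4% in either direction. Bax stood at 182, 160 and 162 CPM and at 137, 151 and 128 CPM, a log2 fold change of -0.28 (SE 0.091, edgeR adjusted p = 0.57), and Bbc3 had -0.45 (SE 0.19, edgeR adjusted p = 0.57).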

How the data were processed

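The authors deposited raw read counts per gene symbol for 6 libraries, 3 labelled wild type and 3 labelled Nr4a1-/-. Per the labels' protocols, a NEBNext Ultra kit was used and the libraries were read as 150-base pairs on a NovaSeq instrument. CASAVA 1.8, HISAT2, featureCounts and GRCm38 are named in the submitters' processing notes. No source used here gives the annotation or the rules for strand and shared reads, so reads of overlapping genes (9 of the 33 genes overlap an exon of another listed gene on the opposite strand) and of similar copies are uncertain. Every listed gene reached at least 133 counts in some library, so genes of low count are not in the deposited table. The number of columns not used was 0.

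Counts of the whole table were fitted with edgeR 4.0.16 in R 4.3.3 (filterByExpr, which removed 0 genes, TMM, robust quasi-likelihood F test, group as the only term, Benjamini-Hochberg adjustment over 10995 genes, threshold 0.05). Intervals are those of the single fit at 95%. DESeq2 1.42.0, limma-voom (limma 3.58.1), other scalings and filters, the replicate number as a block and each library left out were the alternatives. List levels by library used log2 CPM with a prior count of 2. Exon lengths, positions and shared 31-base words came from GENCODE gene models of GRCm38, read with Python 3.11.15, and promoters from RefSeq (GRCm38.p6). The edgeR fit was also run on simulated counts, which hold no outlying library such as WT replicate 1. That run therefore does not show how the fit behaves on these libraries.

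The genes and lists were chosen with earlier results of these data known. Values in every library were given for genes whose groups did not overlap, the 8 largest fold changes, the 5 smallest p-values and a lead gene of each role, and of the other lists up to 3 genes in each direction without overlap were named. Wee1, Cdkn1a, Ddb1, the last S phase gene named and the count ratios were chosen after their values were seen. Depth and 3 libraries per group limit the precision.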

Additional observations from a re-analysis of the deposited data

How the results depend on the processing

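No alternative called any of the 33 genes, namely the 2 other scalings, no filter, at least 5 CPM in at least 3 libraries, a threshold of 0.1, DESeq2, limma-voom, the replicate block and each of the 6 libraries left out. The reported filter removed 0 genes, so the fit with no filter repeats the reported fit and adds no check. Nor does the threshold of 0.1, since the smallest edgeR adjusted p of any gene was 0.273. Over all genes DESeq2 called 103, and with 1 library left out edgeR called 0 to 2. The number of the 33 with an unadjusted p under 0.05, 0 in the reported fit, was 1 with DESeq2, 1 with limma-voom and 1 with the replicate block, Chek2 each time, and 0 to 3 with 1 library left out. With the group means taken out, the correlations of same-numbered libraries were -0.11, 0.35 and -0.25. WT replicate 2 correlated best with its own number, and WT replicates 1 and 3 did not. With 3 libraries per group these values cannot decide whether the numbers pair the libraries. The number of genes without overlap was 6 to 12 with 1 library left out, where fewer libraries also raise the share over all genes, and the median log2 fold change ran from -0.014 to 0.062. Of the 33 genes, 19 kept their direction under all 13 alternatives, though not their size, and 1 of these alternatives, no filter, repeats the reported fit. With 1 library left out, Atr ran from -0.21 to -0.028, Xrcc1 from -0.20 to -0.042, Ercc1 from -0.29 to -0.076, Nbn from 0.047 to 0.22, Trp53bp1 from -0.18 to -0.048, Mdc1 from -0.15 to -0.014, Timeless from -0.10 to -0.0074, Ddb1 from -0.22 to -0.10, Mre11 from -0.14 to -0.066 and Rad50 from 0.026 to 0.10. The other 14 changed sign, all with fold changes under 0.13 in the reported fit. Their ranges with 1 library left out were -0.29 to 0.49 for Brca1, -0.26 to 0.59 for Wee1, -0.095 to 0.29 for Fanca, -0.12 to 0.17 for Wrn, -0.072 to 0.38 for Rad18, -0.029 to 0.14 for Msh6 and -0.039 to 0.068 for Atrip. They were -0.057 to 0.071 for H2ax, -0.0054 to 0.11 for Rad17, -0.092 to 0.062 for Topbp1, -0.13 to 0.022 for Rad9a, -0.023 to 0.048 for Parp1, -0.082 to 0.14 for Tipin and -0.0010 to 0.089 for Hus1. Topbp1 also stood at 0.00062 with library size alone. The cause was not tested.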

Other observations

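Pms2, Faap100 and Rfc2, repair genes outside the set, were also high in WT replicate 1, and they were singled out after their values were seen. Pms2, a mismatch repair subunit, stood at 24.4 CPM in that library and at 6.51 to 10.3 CPM in the others. Faap100, of the Fanconi core complex, stood at 41.0 CPM against 10.8 to 16.5 CPM. Rfc2, a subunit of the clamp loader, stood at 66.6 CPM against 27.0 to 30.5 CPM. Their lists did not share this level as a whole. WT replicate 1 was the highest library for 12 and the lowest for 14 of the 40 base, mismatch and nucleotide excision repair genes. It was the highest for 4 and the lowest for 9 of the 22 Fanconi and translesion genes. For the 16 ATR and fork genes the counts were 7 and 2. Over all genes it was the highest for 32.2% and the lowest for 31.6%. What sets WT replicate 1 apart was not tested.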
